A study of Mus musculus with 6 samples.

Results

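S100 proteins are small calcium-binding proteins built from paired EF-hand motifs, and most of them act as dimers. S100A8 and S100A9 join into calprotectin, the heterodimer that fills the cytoplasm of neutrophils and monocytes, withholds zinc and manganese from microbes and signals through TLR4 and RAGE once released. The other members work mainly inside the cell, where they bind annexins, myosin or ubiquitin ligase adaptors. Here 8 S100A genes of blood cells (S100a1, S100a4, S100a6, S100a8, S100a9, S100a10, S100a11 and S100a13) were followed. They were chosen by symbol from the 16403 genes of the deposited table, and all 8 were among the 12564 genes tested.

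The RNA came from LSK cells, the lineage-negative, Sca-1-positive, Kit-positive fraction of bone marrow that holds hematopoietic stem cells and multipotent progenitors. All mice were C57BL/6. One group had ligature-induced periodontitis (LIP), in which a thread tied around a molar inflames the gum, and the other carried no ligature (NL). Marrow was taken on day 7, and each of the 3 libraries per group pooled the cells of 3 mice, so the spread between libraries is a spread between pools. Library totals lay between 17780853 and 18841103 counts. Of the genes behind the sort, Kit stood at 512 ± 3.73 CPM in NL (TMM-scaled CPM, library-scaled counts, with SD, n = 3) and Ly6a, which encodes Sca-1, at 38.7 CPM. Cd34, a stem cell marker that is not part of the LSK definition, stood at 1008 CPM in NL. Kit rose by 0.18 on the log2 scale in LIP, while Cd34 and Ly6a were not called (-0.04 and -0.07).

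In LIP, S100a8 and S100a9 rose while S100a10 and S100a13 fell, and the other 4 members were not called. Short transcripts as a class read lower in the LIP libraries, and all 8 members are short. With an offset for that trend on length, 5 members (S100a4, S100a6, S100a8, S100a9 and S100a11) were called higher in LIP and none lower. Over all tested genes 14.1% were called higher and 15.8% lower without the offset, and 13.3% and 13.4% with it. The offset raises short genes as a class. The median log2 fold change went from -0.29 to -0.02 at 300 to 450 bases. At 450 to 650 bases it went from -0.18 to 0.02. With the trend fitted without ribosomal protein and respiratory chain genes as well, S100a10 was called lower (-0.11, adjusted p 0.0193 by edgeR). The 2 views are given in turn below, member by member.

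All 8 members lie on mouse chromosome 3 (RefSeq, GRCm38), in 2 groups 2.82 Mb apart. S100a1, S100a13, S100a4, S100a6, S100a8 and S100a9 occupy 185 kb from 90511034 to 90695721, and S100a11 and S100a10 occupy 44.1 kb from 93520496 to 93564645. S100a8 (90669071 to 90670034, plus strand) and S100a9 (90692630 to 90695721, minus strand) are 22.6 kb apart and point towards each other. S100a1 and S100a13 overlap by 98 bases at their starts on opposite strands, and no source used here says whether the counting used strand. In the GENCODE M21 transcript with the longest coding region S100a13 has 4 exons and each other member has 3. The longest run of identical bases between any of the 28 pairs of member transcripts was 19 bases, well under the 100 bp read length, and all members had whole counts in every library. S100a11 shares a run of 44 bases with the pseudogene S100a11-ps on chromosome 12.

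Since S100a8 and S100a9 both rose, the 250 bases before each start are shown from RefSeq (GRCm38). Capitals mark a TATA box (TATAAA) or a C/EBP-type element (TTGCNNAA), searched on both strands. The window of S100a8 is chr3:90668821-90669070 on the plus strand and that of S100a9 is chr3:90695722-90695971 on the minus strand.
S100a8: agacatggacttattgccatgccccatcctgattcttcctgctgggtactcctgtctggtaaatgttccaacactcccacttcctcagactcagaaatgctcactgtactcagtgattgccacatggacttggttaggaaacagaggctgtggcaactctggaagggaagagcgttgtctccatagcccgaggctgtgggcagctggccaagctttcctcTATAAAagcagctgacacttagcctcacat
S100a9: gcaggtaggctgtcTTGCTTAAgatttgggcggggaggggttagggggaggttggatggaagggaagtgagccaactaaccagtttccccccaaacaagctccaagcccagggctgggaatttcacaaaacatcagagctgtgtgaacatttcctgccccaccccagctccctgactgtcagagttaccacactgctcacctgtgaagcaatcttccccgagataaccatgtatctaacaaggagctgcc
The TATAAA of S100a8 runs from 30 to 25 bases before its start, and 12.4% of 32851 such windows in the RefSeq table hold these letters. The TTGCTTAA of S100a9 lies 236 to 229 bases before its start, and TTGCNNAA occurs in 9.56% of windows. A PU.1-type element (GAGGAAG, in 10.6% of windows) was found in S100a8 only, on the opposite strand 171 to 165 bases before the start. A STAT-type element (TTCNNNGAA) was in neither window and occurs in 7.02% of all. These matches describe letters and were not linked to binding. Of the 7 members with a window, S100a11 held 2 matches to the AP-1-type TGANTCA, which 6.75% of windows hold, and the other S100 windows held 0 of that motif.

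S100a8, the smaller subunit of calprotectin, read 67.0, 70.6 and 72.6 CPM in the NL libraries and 84.9, 76.9 and 80.8 CPM in the LIP libraries. All LIP values lay above all NL values. The mean went from 70.1 ± 2.87 to 80.9 ± 3.99 CPM (SD, n = 3), a log2 fold change of 0.21 ± 0.04 (SE) with an adjusted p of 1.57e-04 in edgeR's quasi-likelihood test with Benjamini-Hochberg adjustment. S100a9, its partner, read 83.6, 87.5 and 72.2 CPM in NL and 109.5, 107 and 104 CPM in LIP. The groups did not overlap, and NL-3 was the lowest library. S100a9 rose from 81.1 ± 7.92 to 107 ± 2.80 CPM, by 0.40 ± 0.05 on the log2 scale (adjusted p 1.27e-06 by edgeR), which is a 1.32-fold level. Its coefficient of variation in NL was 9.76%, against 2.41% from counting alone at the mean count over the libraries of both groups. Over all tested genes 14.1% were called higher and 15.8% lower, and 2 of the 8 members went each way. The share of all tested genes whose groups do not overlap is not given, so separations named here and below are descriptions.

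**Figure D1:**
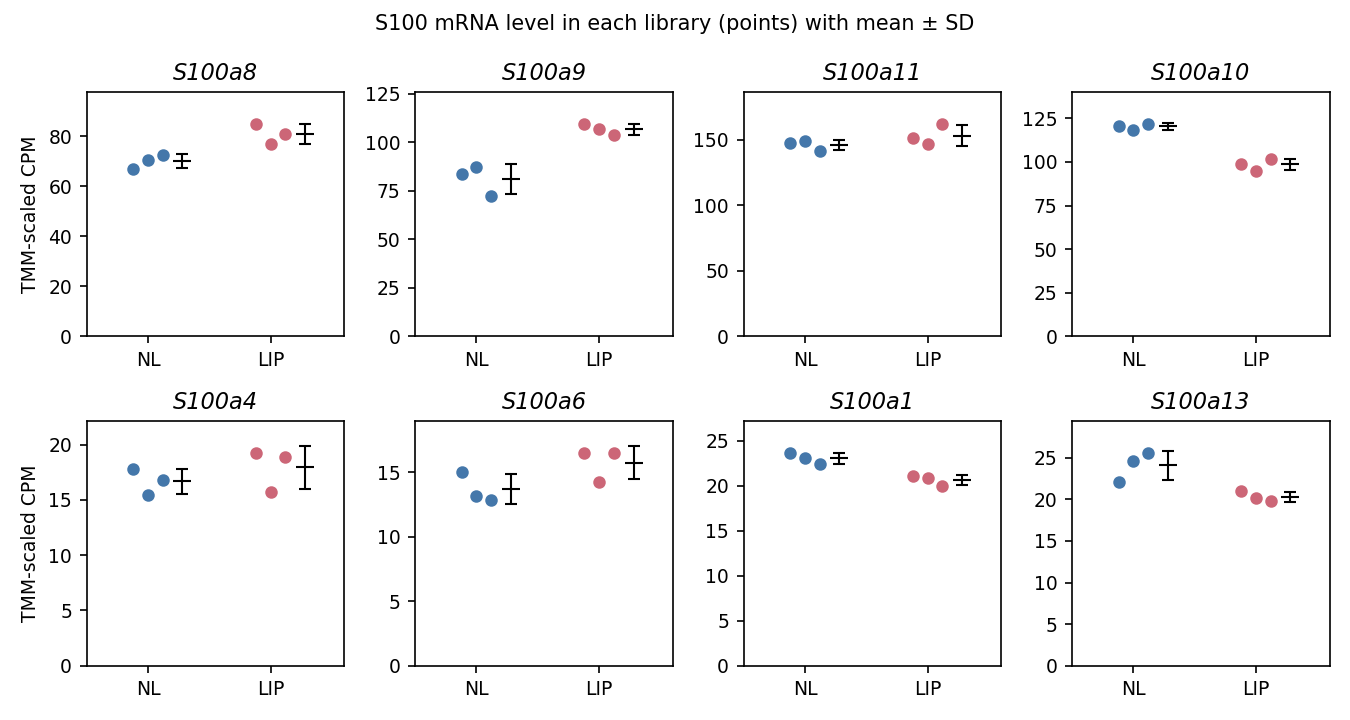
TMM-scaled CPM (y axis, starting at 0) of the 8 S100 members in the 3 NL and 3 LIP libraries; points are libraries, and the black mark and bar beside them are the mean and SD. The LIP points of S100a8 and S100a9 lie above all NL points, those of S100a10, S100a1 and S100a13 lie below, and those of S100a11, S100a4 and S100a6 overlap. The share of all tested genes whose groups do not overlap is not given, so this is a description.

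Many markers of the neutrophil and monocyte lineages rose in the same libraries. The counts of calls below stand beside the 14.1% called higher and 15.8% called lower of all tested genes. Of 11 tested neutrophil markers 8 rose and none fell (median log2 fold change 0.74, against -0.001 over all tested genes), and the summed level of the 12 markers was between 140 and 147 CPM in NL and between 237 and 257 CPM in LIP (these sums are scaled by library total only). The granule genes Ngp, Chil3, Camp and Ltf rose by 0.98, 0.65, 0.74 and 0.80 on the log2 scale. Ifitm6, Cxcr2 and Mmp9 stood at 0.34, 0.21 and 0.66 and were not called (adjusted p 0.128, 0.168 and 0.178 by edgeR). With the length offset only Ifitm6 of these was called (0.58, adjusted p 0.00699). Mmp9 had means of 0.493 CPM in NL and 0.783 CPM in LIP. Ly6g, which encodes the surface antigen that defines mature mouse neutrophils, had between 0 and 3 counts per library, and no marker of any list was at 0 in all libraries. In the monocyte and macrophage list 8 of 10 rose and 1 fell (median 0.34), with summed levels of 767 to 788 CPM in NL and 1041 to 1062 CPM in LIP, and Fn1, F13a1, Csf1r and Ccr2 rose by 0.85, 0.48, 0.43 and 0.39. The part of such cells in the rise of S100a8 and S100a9 was not tested, and in bulk RNA more cells of a type and more RNA per cell cannot be told apart. Of the markers of other cell types, 3 of 6 B cell markers and 3 of 6 T and NK cell markers rose, with summed levels of 56.2 to 59.2 CPM in NL and 72.0 to 73.7 in LIP for the former, and of 133 to 142 in NL and 154 to 168 in LIP for the latter. Nkg7 alone (125 CPM in NL and 140 in LIP) made up most of the T and NK cell sum. Stromal and endothelial markers summed to 87.1 to 89.3 CPM in NL and 108 to 112 in LIP, and 2 of the 4 tested rose. These were Pdgfrb (72.6 CPM in NL and 86.0 in LIP) and Vcam1 (14.7 and 19.1), which made up most of that sum. Of 7 erythroid markers 1 rose and 2 fell without the length offset, and 5 rose and 1 fell with it (13.3% and 13.4% of all tested genes with it). The erythroid sums, taken without it, overlapped (177 to 184 and 172 to 195 CPM), as did those of megakaryocyte markers (138 to 149 and 148 to 159 CPM). Of 5 megakaryocyte markers 2 rose all the same, Ppbp by 1.03 and Gp1ba by 0.43, and 0 fell.

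Levels of different genes can be compared on the TPM scale, which divides by length. In NL the order of mean TPM was S100a11 (573), S100a8 (375), S100a10 (349), S100a9 (304), S100a1 (71.4), S100a4 (66.2), S100a13 (61.9) and S100a6 (35.4). Neighbours in this order did not overlap over the 3 libraries, except S100a1 with S100a4 and S100a4 with S100a13. S100a9 and S100a10 exchanged places in LIP. S100a10 was above S100a9 in all 3 NL libraries (356, 339 and 352 against 320, 323 and 269 TPM), and S100a9 was above S100a10 in all 3 LIP libraries (447, 446 and 423 against 311, 308 and 321 TPM). The ratio of S100a9 to S100a10 needs no scaling between libraries, and its geometric mean was 0.868 in NL and 1.40 in LIP, with no overlap. The two-sided exact permutation p of that ratio was 0.1, the smallest that 3 against 3 libraries can give.

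**Figure D2:**
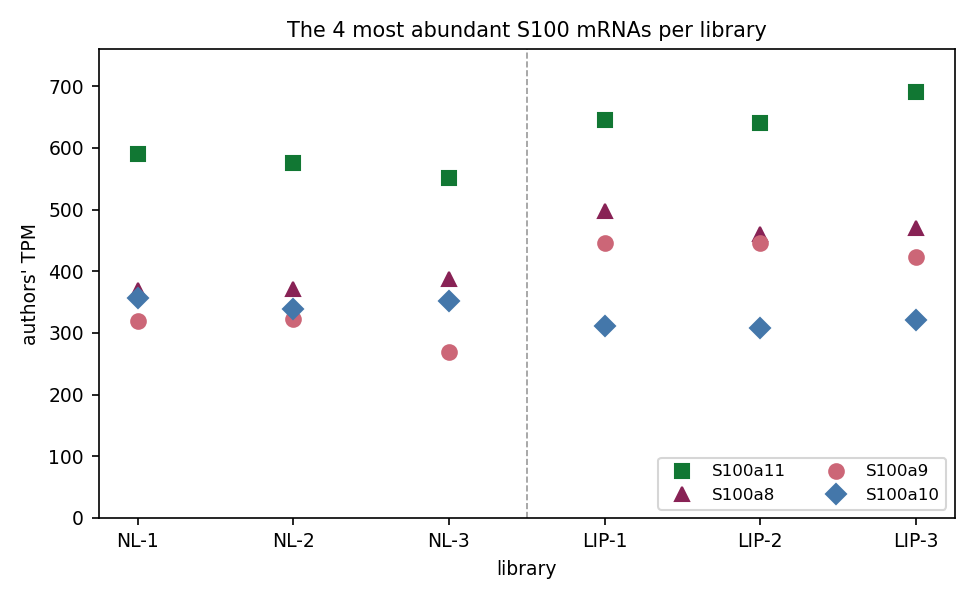
The authors' TPM (y axis, starting at 0) of the 4 most abundant S100 members in each library (x axis); each symbol is one gene in one library. S100a10 lies above S100a9 in the 3 NL libraries and below it in the 3 LIP libraries.

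The balance of the calprotectin subunits was read as a share. S100a8 made up 53.6%, 53.5% and 58.9% of the summed S100a8 and S100a9 TPM in NL, and 52.7%, 50.8% and 52.7% in LIP. The mean share was 55.3% ± 3.13 in NL and 52.0% ± 1.11 in LIP (SD, n = 3), without overlap, and the two-sided exact permutation p was 0.1, the smallest possible. The difference of -3.27 percentage points was -1.46 without NL-3, the library with the highest share. Together the subunits took 36.6% to 37.8% of the TPM of all 8 members in NL and 41.5% to 43.7% in LIP. The 8 members summed to between 1794 and 1879 TPM in NL and between 2095 and 2159 TPM in LIP. On this scale every member stood higher in LIP, relative to NL, than on the CPM scale.

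S100a10, the light chain that joins annexin A2 and does not itself bind calcium, read 121, 118 and 122 CPM in NL and 98.9, 95 and 102 CPM in LIP. Every LIP value lay below every NL value. It fell by 0.29 ± 0.04 (SE) on the log2 scale, with an adjusted p of 1.42e-08 by edgeR. That call was lost with the length offset described below (-0.08, adjusted p 0.0755). S100a13, which takes part in the non-classical release of FGF1 and interleukin-1 alpha, read 22.1, 24.6 and 25.6 CPM in NL and 21.0, 20.1 and 19.8 CPM in LIP, again without overlap. It fell by 0.25 ± 0.07 (adjusted p 0.00331 by edgeR), a call that the length offset also ended (-0.06, adjusted p 0.512). The neighbour that overlaps it at its start, S100a1, best known as a regulator of calcium cycling in muscle, read 23.6, 23.1 and 22.4 CPM in NL and 21.1, 20.8 and 20.01 CPM in LIP. Its LIP values were all the lower ones, but its log2 fold change of -0.16 (95% interval -0.29 to -0.03) missed the threshold (adjusted p 0.0552), and the length offset turned its sign, to 0.06.

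S100a11, a partner of annexin A1 and the most abundant member, read 147.5, 149 and 141 CPM in NL and 151, 146 and 162 CPM in LIP, with overlap. Its log2 fold change was 0.07 (95% interval -0.004 to 0.14, adjusted p 0.154 by edgeR). On the TPM scale, however, its groups were apart, with 591, 575 and 552 TPM in NL and 645, 641 and 690 TPM in LIP. S100a4, which binds non-muscle myosin, read 17.8, 15.5 and 16.8 CPM in NL and 19.2, 15.7 and 18.9 CPM in LIP. The groups overlapped, and its log2 fold change was 0.10 (95% interval -0.05 to 0.26, adjusted p 0.338). S100a6, also called calcyclin, read 15.03, 13.2 and 12.9 CPM in NL and 16.5, 14.3 and 16.5 CPM in LIP. Its log2 fold change was 0.20 (95% interval 0.03 to 0.37) with an adjusted p of 0.059. On the TPM scale its groups were apart too, with 39.5, 33.7 and 33.2 TPM in NL and 46.2, 41.2 and 46.3 TPM in LIP. The TPM scale moved every member towards LIP, not only S100a11 and S100a6. With limma on log2(TPM + 1) S100a10 stood at -0.16 (edgeR -0.29), S100a1 at -0.03 (-0.16) and S100a11 at 0.20 (0.07). The TPM separations are therefore no separate evidence for a rise of these genes. S100a6 was called without NL replicate 1 (0.28, adjusted p 0.0261 by edgeR) and without LIP replicate 2 (0.27, adjusted p 0.021). Without NL replicate 2 or 3, or LIP replicate 1 or 3, it was not called (0.16 to 0.18, adjusted p 0.182 to 0.208 by edgeR).

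The effective length of a transcript, taken from the authors' counts and FPKM, ran from 305 bases for S100a8 to 639 bases for S100a13. In between stood S100a4 with 414, S100a11 with 417, S100a9 with 437, S100a1 with 528, S100a10 with 564 and S100a6 with 632 bases. Fold changes over the whole table moved with this length. The median log2 fold change was -0.29 for the 129 genes of 300 to 450 bases, and 64.3% of them were called lower and 0.775% higher. It was -0.18 for the 230 genes of 450 to 650 bases, of which 115 were called lower and 3.48% higher. Among the 3416 genes of at least 4000 bases the median was 0.04, with 8.40% called lower and 21.5% higher. The cause of this trend was not tested.

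**Figure D3:**
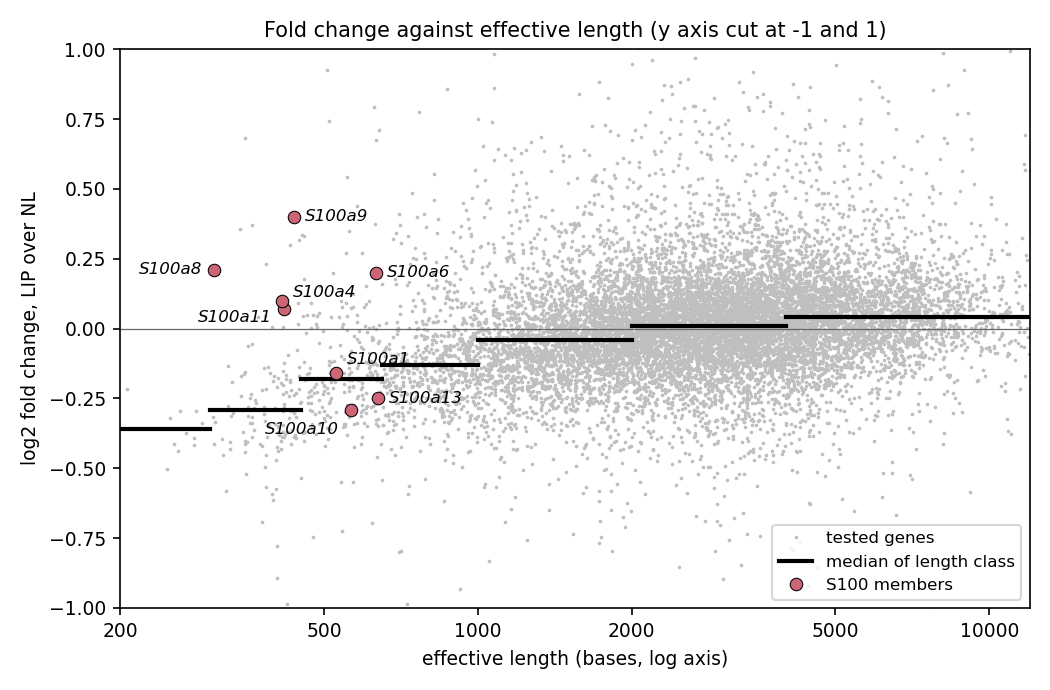
Log2 fold change of LIP over NL (y axis) against effective length in bases (x axis, log scale) for 12435 tested genes (grey), with the median of each length class (black bars) and the S100 members (red); 121 genes beyond the axes are not drawn. S100a9, S100a8, S100a6, S100a4 and S100a11 lie above the bar of their class, while S100a1, S100a10 and S100a13 lie near or below it.

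Beside the 200 tested genes nearest in length, S100a9 stood 0.64 above the median on the log2 scale, and only 4 of those 200 had a higher fold change. S100a8 stood 0.49 above its 200 neighbours, with 9 of them higher. These neighbours had a median of -0.28, and in the LIP libraries their median deviation from the NL mean was -0.24, -0.35 and -0.23, while S100a8 stood at 0.28, 0.14 and 0.21 in the same libraries. LIP-2 was the lowest LIP library for both. S100a6 stood 0.38, S100a4 0.35 and S100a11 0.32 above their neighbours, with 11, 14 and 16 of 200 higher. By contrast S100a1 stood 0.02 above its neighbours, with 86 of 200 higher, and S100a10 and S100a13 stood at -0.10 and -0.07 relative to theirs, with 155 and 143 of 200 higher. Of the 200 neighbours of S100a10 100 were themselves called lower, and of those of S100a13 98. Between 44 and 72 of the 200 neighbours of a member were ribosomal protein or respiratory chain genes. These counts are descriptions, since no test compares a gene with its neighbours.

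In a further fit edgeR was given a length offset, the trend of each library on effective length, fitted without the members. The trend entered as fixed, so the p-values reflect the spread between libraries and not that of genes around the trend. They are therefore no test of a member against its length neighbours. With the offset 5 of 8 members were called higher and none lower, where 13.3% of all tested genes were called higher and 13.4% lower. The log2 fold change of S100a9 was 0.65 ± 0.06 (SE), a 1.57-fold level, with an adjusted p of 5.63e-06, and that of S100a8 was 0.52 ± 0.04, a 1.44-fold level, with an adjusted p of 5.1e-14. S100a11 stood at 0.33 (adjusted p 2.01e-10), S100a6 at 0.38 (adjusted p 3.19e-04) and S100a4 at 0.36 (adjusted p 2.5e-04). Short globin genes, markers of red cells, were also called higher under the offset, with Hba-a1 at 0.33, Hbb-bs at 0.30, Hbb-bt at 0.29 and Hba-a2 at 0.28, while none of these 4 was called without it (0.05 to 0.09). Globin copies are near-identical, so the counts of each are uncertain. The part of such cells in the S100 values was not tested. The 3 other members had 95% intervals of -0.07 to 0.19 for S100a1, -0.15 to -0.01 for S100a10 and -0.19 to 0.07 for S100a13. With the trend fitted without ribosomal protein and respiratory chain genes as well, the same 5 were called higher and S100a10 was called lower, at -0.11 (adjusted p 0.0193). The median over the 8 members was 0.09 without the offset and 0.35 with it, while the median over all tested genes was -0.001 and 0.004.

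**Figure D4:**
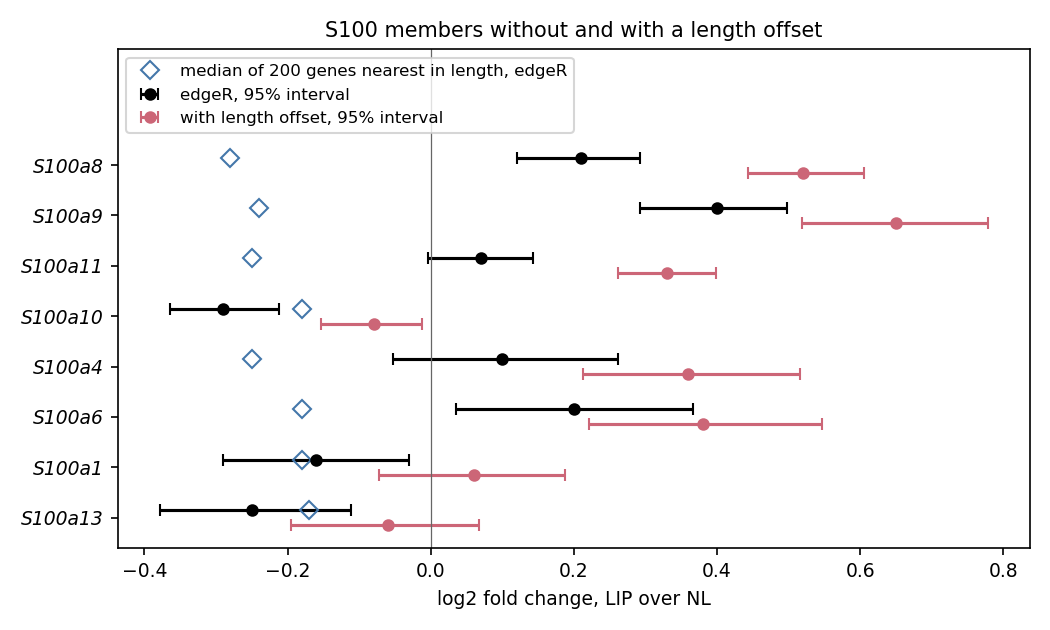
Log2 fold change of LIP over NL (x axis) for the 8 S100 members in edgeR (black) and with the length offset (red), each with its 95% interval, and the median of the 200 genes nearest in length (open blue diamonds, no offset). The offset moves every member to the right, and the red intervals of S100a8, S100a9, S100a11, S100a4 and S100a6 lie wholly above 0.

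Ratios within a library compare neighbouring members without any scaling between libraries. S100a11 was 1.66, 1.70 and 1.57 times S100a10 in NL and 2.07, 2.08 and 2.15 times in LIP on the TPM scale. These genes lie side by side in the second group, and their ratio did not overlap between the groups. The S100a1 to S100a13 ratio was 1.29, 1.12 and 1.06 in NL and 1.21, 1.25 and 1.23 in LIP, with overlap, and had an exact permutation p of 0.4 (two-sided). The S100a6 to S100a4 ratio had geometric means of 0.535 in NL and 0.574 in LIP.

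The table held 16 genes with S100 symbols. Of the 8 that were no members, S100a2, S100a3, S100a5, S100a7a, S100a14, S100a16 and S100b had at most 3 counts in any library and fell under the filter, too few to show any difference (3 counts are 0.159 to 0.169 CPM). S100a3, S100a2 and S100a5 lie between the expressed S100a13 and S100a6, and S100a7a next to S100a8. S100pbp, on chromosome 4, encodes a protein that binds S100P and is no S100 protein. Its log2 fold change was -0.09 with an adjusted p of 0.178.

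Of 8 tested genes for receptors and adaptors that sense released S100 proteins 1 rose and 1 fell, near the 14.1% called higher and 15.8% called lower over all tested genes, with a median log2 fold change of -0.05. Emb, which encodes an immunoglobulin-family membrane protein, rose by 0.09 (407 ± 4.98 to 433 ± 18.1 CPM), and Bsg, which encodes basigin, fell by 0.09. The call of Bsg was lost with the length offset (-0.03, adjusted p 0.495). Tlr4, the endotoxin receptor gene, stood at -0.09 (adjusted p 0.329) and its adaptor gene Myd88 at -0.07 (adjusted p 0.228). Ager, which encodes RAGE and was named after its value was seen, had means of 1.42 CPM in NL and 1.40 CPM in LIP (log2 fold change -0.02, adjusted p 0.968).

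Among the genes of intracellular binding partners 6 of 14 rose and 3 fell, with a median of 0.07, where 14.1% of all tested genes were called higher and 15.8% lower. With the length offset 4 rose and 2 fell, beside 13.3% and 13.4% of all. Cacybp, which encodes the calcyclin-binding protein that S100A6 binds, fell from 194 ± 6.76 to 136 ± 10.1 CPM, by 0.51 ± 0.04 on the log2 scale (adjusted p 3.23e-12 by edgeR). Sugt1, a co-chaperone gene whose protein also binds S100A6, fell by 0.21. Myh9, the non-muscle myosin heavy chain that S100A4 binds, rose from 481 ± 18.7 to 575 ± 25 CPM, by 0.26. Ahnak, which encodes a giant scaffold bound by annexin A2 and S100A10, rose by 0.25. The annexin genes were named after their values were seen. Anxa2 rose by 0.15 (adjusted p 0.00197) while S100a10 fell, and Anxa1 fell by 0.15 (adjusted p 0.00248) while S100a11 stood at 0.07. With the length offset Anxa2 was at 0.21 (adjusted p 1.11e-05), and Anxa1 lost its call (-0.08, adjusted p 0.0938). All of Cacybp, Sugt1, Myh9 and Ahnak kept their direction and call with that offset.

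Of 10 transcription factor genes linked to S100a8 and S100a9, 4 rose and 1 fell, with a median of 0.07, beside the same 14.1% and 15.8% of all tested genes. Spi1, which encodes PU.1, rose by 0.16, and Gfi1, a transcriptional repressor that acts in the granulocyte lineage, by 0.18. Cebpe, a factor of late granulocyte genes, rose by 0.28 ± 0.08 from 16.1 to 19.5 CPM. Hif1a fell by 0.12. With the length offset 4 of these 10 rose and 2 fell (13.3% and 13.4% of all). Of 21 tested genes for other EF-hand proteins 1 rose and 5 fell, with a median of -0.02, and 1 rose and 4 fell with the length offset. The lower counts of this list are not far from the 15.8% and 13.4% of all tested genes called lower in those fits. Calm2, a calmodulin gene, fell by 0.21, and Rcn2, a calcium-binding protein of the endoplasmic reticulum, by 0.17. Efhd2 rose by 0.13.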

How the data were processed

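The authors deposited one table with estimated counts, FPKM and TPM for each library, named so per the file headers. Per the labels' protocols, polyA-selected libraries were read as 100 bp pairs at an average of 45.0 M reads. The submitters' processing notes name STAR, HTSeq and GRCm38, with no role or version. The 6 columns of group means were not used.

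Estimated counts were rounded (13481 of 16403 genes had whole counts, members included), although the test had been planned for counts. They were filtered with filterByExpr, scaled by TMM and tested with edgeR 4.0.16 in R 4.3.3 (robust quasi-likelihood, Benjamini-Hochberg adjustment over all tested genes, a call below 0.05). Log2 fold changes are LIP over NL. Effective length is the deposited count over FPKM and library total, median over libraries with at least 10 counts. The length offset was a lowess curve per library (span 0.3). Scripts were tested on simulated data. Alternatives used DESeq2 1.42.0, limma 3.58.1 (also on log2(TPM + 1)), other factors and filters, a replicate block and left-out libraries. The fit without ribosomal and respiratory chain genes in the trend, its matching neighbour set, the length offset with left-out libraries and the gene ratios other than the S100a8 share were added after the data were seen.

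The members, gene lists and tests were chosen with earlier results of these data known. Named were all S100 genes, up to 4 genes with the smallest p from each further list, and the 3 genes most correlated with S100a8 and with S100a9. Some genes that this rule takes in are not reported here. Promoter windows came from RefSeq for 7 members.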

Additional observations from a re-analysis of the deposited data

How the results depend on the processing

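S100a8 and S100a9 were called higher in all 25 alternative fits, with log2 fold changes from 0.17 to 0.56 and from 0.32 to 0.69. The number of members called higher was 2, became 4 with library totals alone, and 5 with the length offset, with the offset and replicate block, with the trend fitted without ribosomal and respiratory chain genes, and with limma on log2(TPM + 1). The number called lower was 2 and became 0 with the length offset and with the offset and replicate block, and 1 with the trend fitted without ribosomal and respiratory chain genes and with limma on log2(TPM + 1). Over all tested genes 14.1% were called higher and 15.8% lower in the main fit, and 13.3% and 13.4% with the length offset. The shares in the other fits are not given, so the counts of members there stand without a comparison. With limma on log2(TPM + 1) the log2 fold change of every member was higher than in the main fit. With the offset and 1 library left out, 5 were called higher and 0 lower in every case, and without the offset leaving out a library gave 2 to 3 higher and 2 lower. The falls of S100a10 and S100a13 lost their calls in 8 and 10 of the 25 fits, and S100a4, S100a6 and S100a11 gained a call in 10, 13 and 11.

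S100a1 turned positive with the length offset (0.06), with the offset and replicate block (0.06), with the trend fitted without ribosomal and respiratory chain genes (0.03), and with the offset and 1 library left out (0.08, 0.05 and 0.04 without NL replicates 1 to 3, and 0.06, 0.02 and 0.10 without LIP replicates 1 to 3). Neither sign of S100a1 was called in any fit. S100a8 stood 0.37 above its length neighbours when these were also within 2-fold of its TPM and 0.41 without ribosomal and respiratory chain genes, and S100a11 stood 0.20 above those within 2-fold of its TPM.

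No label says whether the replicate numbers mark anything shared between groups. Same-numbered libraries correlated by 0.03, -0.016 and -0.113 in their deviations from the group means, which so few pairs cannot settle. With the replicate block alone 2 members were called higher and 2 lower, as without it. The adjusted p of S100a9 by edgeR went from 1.27e-06 to 1.96e-11 with that block. The difference in the S100a8 share lay between -4.2 and -1.46 percentage points with a library left out, the latter without NL replicate 3. Counting error of the members, 1.92% to 6.11% of a library's value, limits what could be seen for S100a4, S100a6, S100a1 and S100a13.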

Other observations

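Among 11224 genes of average log2 CPM 1 or more, Glce and Hexa had the highest Pearson correlation with S100a8 (0.998 and 0.994), and Sh3kbp1, Stk11ip and Frrs1 with S100a9 (0.999, 0.997 and 0.996). All 6 libraries enter each value, so the difference between groups sets much of it, and the highest values of so many genes over 6 points are a description only. Glce, an enzyme of heparan sulfate synthesis, read 26.4, 27.5 and 28.8 CPM in NL and 34.3, 30.6 and 32.1 CPM in LIP, a log2 fold change of 0.23. Sh3kbp1, which encodes an endocytic adaptor, read 107, 109 and 100 CPM in NL and 122, 120 and 120 CPM in LIP, a log2 fold change of 0.19. Glce, like S100a8, was lowest of the LIP libraries in LIP-2, and Sh3kbp1, like S100a9, was lowest of the NL libraries in NL-3.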
